A study of Mus musculus with 2 samples.

Results

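Of 6994 boundaries that the in situ Hi-C map of mouse olfactory sensory neurons places on the autosomes, 1020 lay in gene deserts, and the other 5974 lay in or near genes. A boundary was counted as a desert boundary when no protein-coding gene body, and so no coding transcription start site (TSS), came within 100 kb of its midpoint in the GENCODE annotation of GRCm38. The whole list holds 7367 boundaries, those on the X chromosome included. Each boundary is an interval of 5 kb that the authors classed as strong or weak and gave a strength, a score of their own. The strength is a number without a stated unit that ran upward from 0.2 in this list, and the class changed from weak to strong at 0.5.

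The study mapped chromatin contacts in 1 group of cells, with no second condition. The cells were mature olfactory sensory neurons positive for Olfr1507 (MOR28), an odorant receptor, sorted as GFP-positive cells from the olfactory epithelium of untreated adult MOR28-GFP mice of the 129P2/OlaHsd strain, sexes mixed. The biological replicates, 2 in number, used 170000 and 220000 cells, crosslinked with 1% formaldehyde and cut with DpnII. Contacts of both replicates were merged into 1 matrix before boundaries were called, so a value here has no replicate error, and the read depth behind a boundary is unknown. A boundary list holds no expression, so the identity of the cells could not be checked against marker genes.

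Chromosomes fold into neighbouring domains within which contacts are frequent, and a boundary is the place where one domain gives way to the next. Many boundaries form where the DNA-binding protein CTCF, sitting on its motif in one orientation, stops the cohesin complex as it extrudes a chromatin loop; others coincide with active promoters. Gene deserts are long stretches without coding genes, and those beside developmental regulators and neuronal adhesion genes are known for enhancers that act over long distances.

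Of the desert boundaries, 96 held a match to the CTCF core motif in the interval widened by 10 kb on each side. The matches at the 11 strongest of them are shown because the results on motif and strand rest on such sequences. There are 14, each read from the GRCm38 reference on the strand of the motif, 5′ to 3′, with the 12 bases of the motif in capitals and 14 bases of context on each side. The reference is of the C57BL/6J strain, not that of the mice.
Slc7a14-Kcnmb2 chr3:31769360-31769399 (+ strand): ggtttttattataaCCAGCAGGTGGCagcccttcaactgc
Zpld1-Nfkbiz chr16:55469271-55469310 (- strand): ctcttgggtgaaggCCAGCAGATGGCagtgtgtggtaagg
Zpld1-Nfkbiz chr16:55476998-55477037 (- strand): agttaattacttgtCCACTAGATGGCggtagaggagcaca
Gadd45g-Diras2 chr13:52255864-52255903 (+ strand): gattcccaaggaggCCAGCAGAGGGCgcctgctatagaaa
Kcnj2-Sox9 chr11:111537828-111537867 (+ strand): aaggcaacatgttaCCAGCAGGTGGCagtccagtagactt
Kcnj2-Sox9 chr11:111532642-111532681 (- strand): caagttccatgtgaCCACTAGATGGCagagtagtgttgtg
Gpr158-Myo3a chr2:21941319-21941358 (+ strand): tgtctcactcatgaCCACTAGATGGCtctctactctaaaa
Tecrl-Epha5 chr5:83480806-83480845 (- strand): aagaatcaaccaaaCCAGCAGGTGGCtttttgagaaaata
Tecrl-Epha5 chr5:83484326-83484365 (- strand): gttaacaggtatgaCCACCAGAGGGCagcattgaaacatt
Npvf-Nfe2l3 chr6:51168222-51168261 (- strand): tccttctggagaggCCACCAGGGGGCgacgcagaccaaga
Ube2e2-Gm21738 chr14:19042160-19042199 (- strand): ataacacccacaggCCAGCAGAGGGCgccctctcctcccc
Tshz3-Zfp536 chr7:37360331-37360370 (- strand): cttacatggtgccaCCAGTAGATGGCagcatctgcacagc
Slc24a2-Mllt3 chr4:87368239-87368278 (+ strand): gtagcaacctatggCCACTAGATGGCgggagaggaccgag
Celf2-Gata3 chr2:8674179-8674218 (+ strand): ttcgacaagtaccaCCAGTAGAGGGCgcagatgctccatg
The cores are alike because the search requires it, while the flanking bases differ from site to site. The repeat mask of the reference covered 4 of the 14, at Gadd45g-Diras2, Tecrl-Epha5 and Ube2e2-Gm21738. Of the 14 matches, 7 pointed away from the midpoint of the boundary and 7 toward it. At Kcnj2-Sox9, the boundary held a pair of matches on opposite strands.

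Desert boundaries were weaker than other boundaries. Of the 1020, 249 were strong, a share of 24.4% (95% Wilson interval 21.9 to 27.1), against 61.4% (60.1 to 62.6) of the other autosomal boundaries. Over all autosomal boundaries 56% were strong. The difference was -37.0 percentage points (95% Newcombe interval -39.8 to -34.0), and the share was lower in deserts on 19 of 19 autosomes. These intervals cover counting error only, and neighbouring boundaries are not independent.

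The median strength was 0.305 (95% interval 0.292 to 0.316) for desert boundaries and 0.647 (0.630 to 0.663) for the others. Desert strengths had quartiles of 0.238 and 0.493. A strength above 1 was reached by 82 desert boundaries, or 8.04%, and by 1657 others, or 27.7%. Above 2 there were 3 desert boundaries and 221 others. The desert distribution thus kept a tail of strong boundaries, but a thin one.

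**Figure D1:**
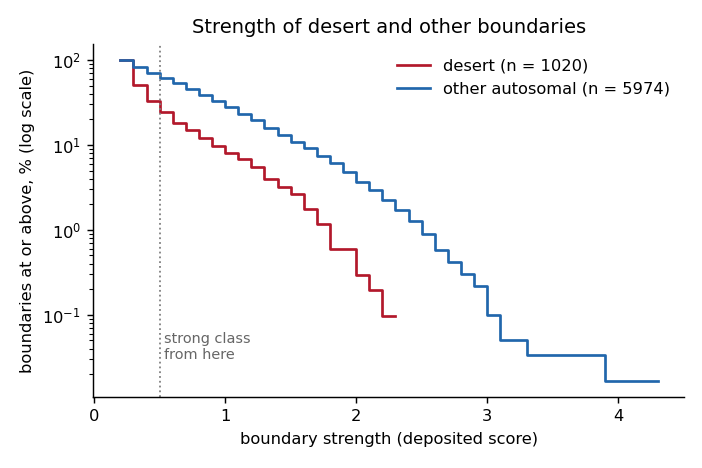
Share of boundaries (%, log scale) at or above each strength (deposited score, no unit), for the 1020 desert boundaries (red) and the 5974 other autosomal boundaries (blue); the dotted line marks the strong class at 0.5. At 0.5 the curves stand at 24.4% and 61.4%, and the highest desert strength is 2.21.

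Within deserts, strength fell with distance from the nearest coding gene. At 100 to 200 kb, 38.9% of 288 boundaries were strong (33.4 to 44.6). The share was 22.7% of 396 (18.9 to 27.1) at 200 to 500 kb and 16% of 225 (11.8 to 21.4) at 500 to 1000 kb. Beyond 1000 kb it was 9.91% of 111 (5.62 to 16.9). Neighbouring steps overlap in their intervals beyond 200 kb, while the nearest and the farthest do not. Boundaries just outside the deserts, 50 to 100 kb from a gene, were strong in 53.0% of 443 cases (48.4 to 57.6).

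The limit of 100 kb cuts through a continuous range. The members nearest to it lay between Agmo and Dgkb (100.3 kb from the gene, strength 0.381), Api5 and Lrrc4c (100.7 kb, 0.518) and Fshr and Gm10184 (101.0 kb, 0.242). The boundaries that just missed it lay beside Samd9l (99.8 kb, strength 0.347), between Plpp3 and Gm12728 (99.7 kb, 0.301) and between Kcnrg and Dleu7 (99.7 kb, 0.231).

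Deserts made up 663 Mb, or 27.7%, of the assembled autosomal sequence and held 1.54 boundaries per Mb (95% Poisson interval 1.45 to 1.64), against 3.45 (3.36 to 3.54) in the rest. The ratio was 0.446 (0.417 to 0.477), and the density was lower in deserts on 19 of 19 autosomes. For strong boundaries the ratio was 0.177 (0.155 to 0.202), from 0.375 per Mb in deserts and 2.12 elsewhere. For weak boundaries it was 0.873 (0.804 to 0.948), so the shortfall in deserts was mostly one of strong boundaries.

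**Figure D2:**
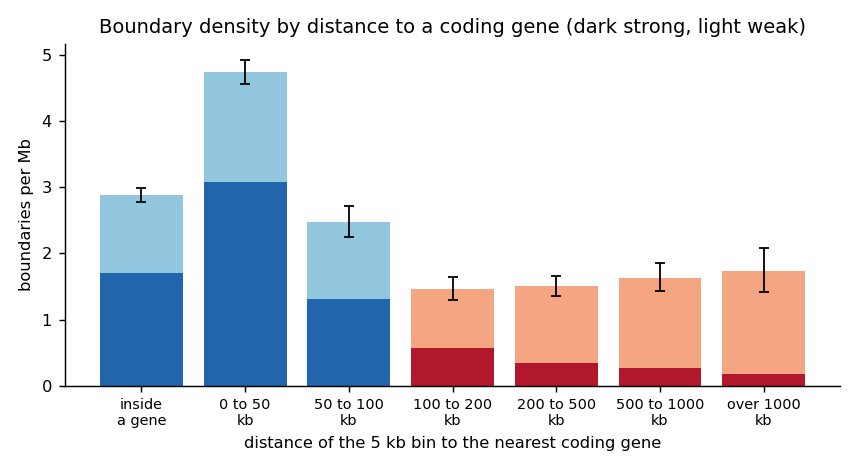
Boundaries per Mb of assembled sequence by distance of the 5 kb bin to the nearest coding gene; red bars are deserts and blue bars the rest, dark parts strong and light parts weak, and error bars are 95% Poisson intervals on the total. Density peaks at 4.74 per Mb within 50 kb of a gene and stays between 1.46 and 1.73 per Mb over the desert bins.

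Deeper into deserts the total density did not fall, but its makeup did. It was 1.46 per Mb (1.30 to 1.64) at 100 to 200 kb from a gene, 1.501 (1.36 to 1.66) at 200 to 500 kb, 1.63 (1.42 to 1.86) at 500 to 1000 kb and 1.73 (1.42 to 2.08) beyond. The density of strong boundaries went down over the same steps, from 0.568 to 0.341, 0.261 and 0.171 per Mb.

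Many desert boundaries stood beside repeat-rich bins. The reference marks repeats by soft-masking, and a 5 kb bin was called heavily masked when over 80% of it was so marked. Such a bin lay 10 or 15 kb from 610 of the 1020 desert boundaries, or 59.8% (56.8 to 62.8), against 27.6% of all desert bins. The share was above that of desert bins on 19 of 19 autosomes. It was 64.3% (60.9 to 67.6) for weak desert boundaries and 45.8% (39.7 to 52.0) for strong ones. Other boundaries had it in 21.5% of cases (20.5 to 22.5), against 13.8% of the bins outside deserts. The distance of 10 or 15 kb was not planned and is where masked sequence peaked around these same boundaries. These shares therefore describe that peak and are no separate test of it.

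The share of desert boundaries with a heavily masked bin peaked 10 kb away on either side. At the boundary bin itself 6.86% (5.47 to 8.58) of desert boundaries were heavily masked, and 7.25% and 5.98% at the adjoining bins, all below the 8.57% of desert bins. At 10 kb to the left it was 25.7%, and at 10 kb to the right 28.6%. At 15 kb the shares were 17.8% and 17.2%. The mean masked share around weak desert boundaries was 39.2% in the boundary bin, 54.2% at 10 kb to the left and 53.6% at 10 kb to the right.

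**Figure D3:**
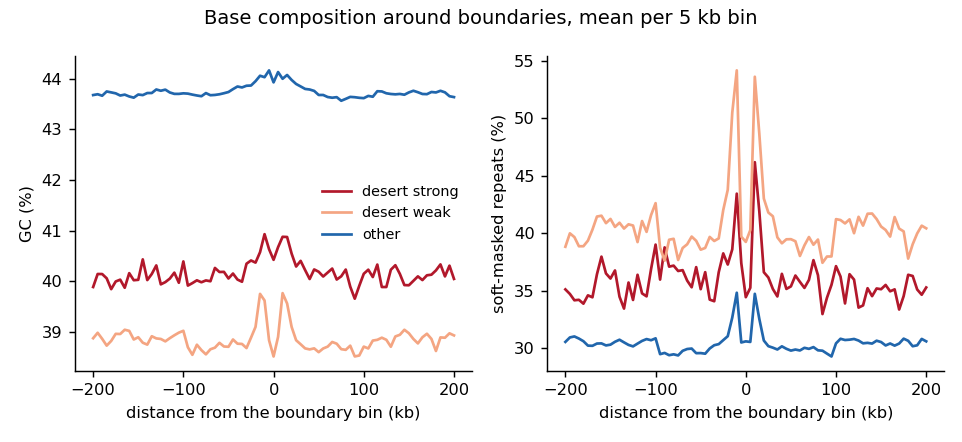
Mean GC (left, %) and soft-masked share (right, %) per 5 kb bin against distance from the boundary bin (kb), for strong desert (dark red), weak desert (light red) and other autosomal boundaries (blue). Masked sequence peaks 10 kb to either side, at 54.2% and 53.6% for weak desert boundaries, with 39.2% in the boundary bin itself.

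Boundaries with and without such a neighbour differed. Among the 610 with one, 18.7% were strong, and among the 410 without one 32.9%, a difference of -14.2 points (-19.7 to -8.77). Their share rose with depth in the desert, from 46.5% at 100 to 200 kb from a gene to 60.6% at 200 to 500 kb and 70.2% beyond 500 kb, while that of the desert bins was 25.1%, 27.2% and 30.7%. With these boundaries and bins left out, a choice made after the data were seen, density fell over the same steps from 1.04 to 0.812 and 0.714 per Mb. The ratio of desert to other density was then 0.272 (0.245 to 0.301) in place of 0.446, and the difference in the strong share was -30.4 points. These densities and this ratio follow from the shares of boundaries and bins with such a neighbour. The distance was picked on these same boundaries, so the values are no separate result. The part of repeats in the boundary calls was not tested.

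Spacing was wide. Neighbouring boundaries that were both in deserts stood a median of 380 kb apart (345 to 405, n = 518), with quartiles of 210 and 605 kb. Neighbours that were both outside deserts stood 240 kb apart (235 to 245, n = 5455). Where only 1 of the neighbours was in a desert, the median was 420 kb (400 to 440, n = 1002). Over 1000 kb apart were 8.88% of the desert intervals, 8.38% of the mixed ones and 1.54% of those outside deserts. A desert boundary had its nearest neighbour of any kind at a median of 270 kb (255 to 285), against 195 kb (190 to 195) for other boundaries. For strong desert boundaries the median was 300 kb (275 to 345), and for weak ones 260 kb (245 to 275).

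The longest of the desert intervals, 2140 kb, ran on chromosome 6 between 4931417E11Rik and Gm9008. Another of 2055 kb lay on chromosome 4 between Ptprd, a receptor tyrosine phosphatase of synapses, and Tyrp1, an enzyme of melanin synthesis. The shortest was 90 kb, between Trim52 and Slitrk1, a synaptic membrane protein. These intervals were chosen after their values were seen.

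Desert boundaries were AT-rich, as deserts are. The 5 kb interval had a GC content of 38.99% ± 3.51 (SD, n = 1020 boundaries), against 43.9% ± 4.66 (n = 5974) at other boundaries. All desert bins averaged 39.3%, so the boundaries stood 0.279 points below them (difference -0.279, 95% interval -0.495 to -0.0628). Their GC was above that of the desert bins on 8 of 19 autosomes. Outside deserts the boundaries stood 0.972 points above their bins (0.852 to 1.09).

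The desert classes lay on either side of the desert mean. Strong desert boundaries had 40.4% GC and weak ones 38.5%, a difference of 1.91 points (1.41 to 2.40). With strong boundaries alone, the difference to desert bins turned to 1.16 points, and without boundaries and bins beside heavily masked sequence it turned to 0.707. CpG pairs followed, with 0.336 fewer per kb at desert boundaries than in desert bins (-0.336, -0.544 to -0.128), and 1.69 more per kb at strong than at weak ones (1.13 to 2.26). Soft-masked sequence was lower in strong than in weak desert intervals (-4.804 points, -7.86 to -1.75).

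Strength rose with GC inside deserts. From the lowest to the highest GC quartile, 12.6%, 19.8%, 25.1% and 40% of the boundaries were strong. GC also fell with distance from genes, so both were split at once. At 100 to 200 kb from a gene, 25.8% of boundaries below the desert median of GC were strong and 45.1% of those above it. At 200 to 500 kb the shares were 15.9% and 28.2%, and beyond 500 kb 12.9% and 16.8%.

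The CTCF core motif was more common at desert boundaries than in deserts at large. It lay in the window of 9.41% of desert boundaries (7.77 to 11.4), against 5.12% of all desert bins, a ratio of 1.84, and on 17 of 19 autosomes the boundaries had the higher share. Over all autosomal boundaries 24.6% had a match, and over the other boundaries 27.2% (26.1 to 28.4), against 13.6% of the bins outside deserts. A control pattern, the motif reversed but not complemented, matched at 2 of the 1020 (0.196%), against 0.195% of desert bins. It had 335 matches on the autosomes and the motif 12245, so its low count does not show that the motif is specific.

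Most of the excess lay in the strong class. Of strong desert boundaries 50 of 249, or 20.1% (15.6 to 25.5), held a match, 3.92 times the share of desert bins. Of weak ones 46 of 771, or 5.97% (4.50 to 7.87), did, 1.16 times that share. Conversely, 52.1% (42.2 to 61.8) of the 96 desert boundaries with a match were strong, against 21.5% (19.01 to 24.3) of the 924 without one. That difference was 30.5 points (20.3 to 40.6) in deserts and 12.9 points (10.3 to 15.6) among other boundaries. Desert boundaries beside a heavily masked bin held a match in 4.92% of cases, and the rest in 16.1%. The motif window takes in the bin 10 kb away, so these shares depend partly on how the groups were made. More than 500 kb from a gene, 3.87% (2.27 to 6.51) of boundaries had a match, close to the 3.35% of bins there.

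The strand of the matches was ordered around strong desert boundaries. Within 50 kb, 36.7% of 79 matches on the left and 73.9% of 92 on the right lay on the forward strand, so most pointed away from the boundary into the flanking domain. The difference was 37.2 points (22.5 to 49.8). In the 10 kb next to the midpoint, the left side had 12 forward and 12 reverse matches, and the right side 17 and 10. The order on the left thus came from matches farther out. Around weak desert boundaries the shares were 35.9% of 103 and 46.9% of 81, a difference of 10.99 points (-3.23 to 24.8) whose interval includes 0. For other autosomal boundaries it was 30.5 points (28.0 to 33.0). As the sequences above show, single boundaries varied: both matches at Tecrl-Epha5 lay on the left, on the reverse strand, pointing away, while that at Gpr158-Myo3a lay on the left and pointed toward the midpoint.

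**Figure D4:**
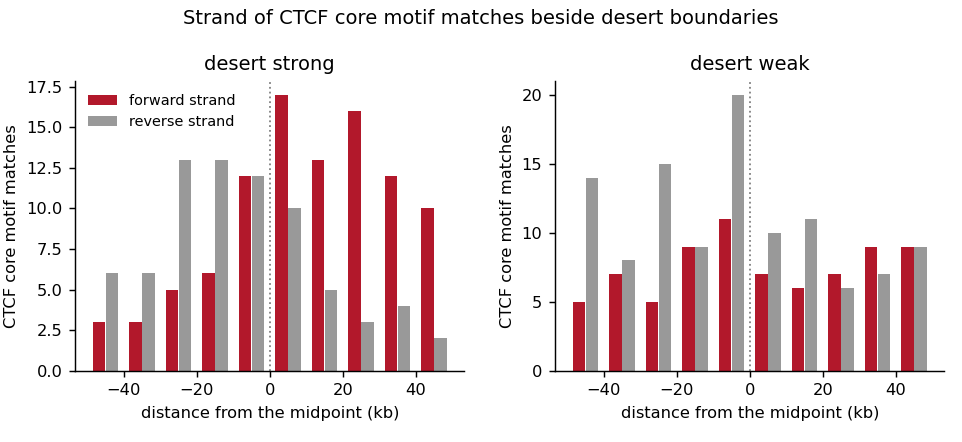
Number of CTCF core motif matches on the forward (red) and reverse (grey) strand in steps of 10 kb from the midpoint (kb), around the 249 strong and the 771 weak desert boundaries. Around strong ones reverse matches prevail on the left, where 36.7% are forward, but not in its nearest 10 kb, with 12 on each strand. Forward matches prevail on the right, where 73.9% are forward. Around weak ones the forward shares are 35.9% and 46.9%.

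EBF proteins are transcription factors of the olfactory lineage. Their palindromic motif reads the same on both strands, and none of its matches overlapped a CTCF match. It lay in the window of 23.3% of desert boundaries (20.8 to 26.0), against 24.7% of desert bins. The share was 26.1% (21.0 to 31.9) in the strong class and 22.4% (19.6 to 25.5) in the weak. Both intervals include the value of desert bins. A motif match is a match of letters and does not show that a protein was bound.

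Deserts lack coding genes, not transcripts. A TSS of a noncoding gene lay in the window of 182 desert boundaries, or 17.8% (15.6 to 20.3), against 18.8% of desert bins. Over all autosomal boundaries the share was 28.6%, and over the other boundaries 30.4% (29.2 to 31.6). Pseudogenes were the commonest class, at 86 desert boundaries (8.43%, 6.88 to 10.3, against 8.87% of desert bins). Long noncoding RNA (lncRNA) genes started at 59 (5.78%, 4.51 to 7.39, against 5.83%), and at 7.63% of strong and 5.19% of weak ones. Among the small RNA genes, microRNA genes lay at 6 (0.588%), all of them with provisional Gm names.

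Of the desert boundaries, 225 (22.1%) had no annotated gene of any kind within 100 kb, and 14.7% (10.6 to 19.9) of these were strong. With an lncRNA gene in that range, as at 379, 29.8% (25.4 to 34.6) were strong. These shares were not split by distance from coding genes. With an lncRNA start in the window 32.2% were strong, and without one 23.9%, a difference of 8.27 points (-2.61 to 21.2). The midpoint lay inside an lncRNA gene in 82 cases. None of these counts of nearby genes was computed over desert bins. A coding gene of the RefSeq annotation came within 100 kb of 41, which shows how far the rule depends on the annotation: Zswim6, at a desert boundary of strength 0.471, is coding in RefSeq and a processed transcript in GENCODE. No desert boundary was within 100 kb of an odorant or vomeronasal receptor pseudogene, and a count of 0 of 1020 bounds the share at 0.375%. The share over desert bins was not computed, so this count cannot be read as particular to the boundaries.

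Among the strongest desert boundaries with a noncoding TSS, that between Meis1 and Spred2 (strength 1.78) held the pseudogene Gm12029. The boundary between Tex29 and A230072I06Rik (1.76) held the lncRNA genes Gm45680 and B020031H02Rik. At Mut-Ptchd4 (1.68) it was the lncRNA AC121875.3 and a pseudogene, and at Dnah5-Ctnnd2 (1.62) the small nucleolar RNA genes Gm24554 and Gm23327. The window at Tmem17-B3gnt2 (1.43) held Gm26829, Gm12052 and the pseudogene Gm12053. The others of the 10 were the pseudogenes Gm12368 at C9orf72-Lingo2 (1.52), Gm34440 and Gm48781 at Ube2e2-Gm21738 (1.45) and Gm48675 at Pdgfd-Dync2h1 (1.23), 6720469O03Rik, of the class of transcripts still under experimental test, at Tshz3-Zfp536 (1.43), and the small nuclear RNA gene Gm22618 at Adgra3-Ppargc1a (1.27).

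The promoters of RefSeq found whole inside a desert boundary interval numbered 20, at 18 boundaries. Not every autosome was searched for them, so these counts are lower limits. Both promoters shown here, chosen after their values were seen, are of lncRNA genes. They run from 250 bases before to 50 after the start, with CpG pairs in capitals. Gm13848 starts inside the boundary between Podxl and 1700012A03Rik (strength 1.16), and Lncpint, an lncRNA induced by p53, inside that between Klf14 and Mkln1 (0.502).
Gm13848 chr6:31666082-31666381 (- strand): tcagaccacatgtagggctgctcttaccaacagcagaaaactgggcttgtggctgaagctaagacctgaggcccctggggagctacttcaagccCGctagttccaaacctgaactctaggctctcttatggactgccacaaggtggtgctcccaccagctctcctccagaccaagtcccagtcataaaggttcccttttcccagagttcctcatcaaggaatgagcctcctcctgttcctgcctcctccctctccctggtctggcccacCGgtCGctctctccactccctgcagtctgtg
Lncpint chr6:31218425-31218724 (- strand): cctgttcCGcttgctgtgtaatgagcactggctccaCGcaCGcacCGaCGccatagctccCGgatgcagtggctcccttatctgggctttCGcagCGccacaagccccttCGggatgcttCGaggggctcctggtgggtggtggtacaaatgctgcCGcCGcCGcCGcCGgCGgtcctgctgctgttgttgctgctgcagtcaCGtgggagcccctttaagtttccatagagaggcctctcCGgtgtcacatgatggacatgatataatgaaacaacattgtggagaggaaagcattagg
Gm13848 has 3 CpG pairs and Lncpint 18. The median over the 32851 promoters of the RefSeq table is 7, and 76.7% have 3 or more and 29.7% 18 or more. GC content was 56.7% and 58.7%, against a median of 52.7%.

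Most of the 10 strongest desert boundaries lay not far beyond the limit of 100 kb from a coding gene. The strongest, at chr11:12575001-12580000 with a strength of 2.21, was 133rd among all autosomal boundaries. It stood 112.5 kb from Cobl, an actin nucleator, in a desert of 2134 kb that ends at Pom121l12. The next, at chr3:78935001-78940000 (2.11), stood 125.0 kb from Rapgef2, an exchange factor for Rap GTPases, and 2227 kb from Fstl5. At chr3:31765001-31770000 (2.05) the boundary stood 135.0 kb from Kcnmb2, a subunit of calcium-activated potassium channels, and was the only one of the 10 with a CTCF match.

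At chr13:3370001-3375000 (1.97) a boundary lay between the chromosome end and Gdi2, a Rab inhibitor. Another, at chr14:120770001-120775000 (1.958), lay between the small GTPase gene Rap2a and Ipo5, a nuclear import receptor. The boundary at chr15:13910001-13915000 (1.94) was the deepest of the 10, 738.8 kb from Cdh6 and 2816 kb from Cdh9, both type II cadherins. At chr2:61460001-61465000 (1.76) a boundary lay between Rbms1, which encodes an RNA-binding protein, and Tank, a signalling adaptor. Of the 10, 5 had a heavily masked bin 10 or 15 kb away: those at Cobl, Kcnmb2, Gdi2, Rap2a and Cdh6. Over all strong desert boundaries that share was 45.8%. For 8 of the 10 the nearest coding gene lay within 150 kb. The share of all desert boundaries within 150 kb was not computed, but 288 of the 1020 lay at 100 to 200 kb.

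Genes that control development flanked many of these deserts. A desert is here a gap of over 200 kb between neighbouring coding genes: there were 1361 on the autosomes, 544 with at least 1 desert boundary and 817 with none, and the former had 978 different flanking genes. A list of 209 developmental transcription factors had 60 among them, 6.13% (4.796 to 7.82) of the flanks, against 0.752% (0.641 to 0.883) of other autosomal coding genes. But 69 of the 1350 flanks of deserts with no boundary were on it too, 5.11% (4.06 to 6.42), and the difference of 1.02 points (-0.848 to 3.01) includes 0. Listed factors thus flanked deserts of both kinds.

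By length of the desert, the share was no higher with a boundary. For gaps of 200 to 500 kb it was 3.26% with and 4.87% without a boundary, for gaps of 500 to 1000 kb 6.48% and 11.2%, and for longer ones 6.98% and 10%. The last value rests on 30 flanks, 3 of them listed. Of the 96 desert boundaries that these factors flanked, 29.2% were strong (21.0 to 38.9), against 23.9% of the rest.

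The strongest boundary beside a listed factor was that between Meis1, a homeobox gene, and Spred2, an inhibitor of Ras signalling, at chr11:19780001-19785000 (strength 1.78), 763.5 kb from Meis1. In the desert between Kcnj2, a potassium channel, and Sox9, the regulator of cartilage and testis development, there were 3 boundaries, with strengths of 1.66, 0.268 and 0.460 from Kcnj2 to Sox9. The strong one, at chr11:111530001-111535000, stood 455.7 kb from Kcnj2 and 1250 kb from Sox9, and none of the 3 had a heavily masked bin 10 or 15 kb away. Between Adamts16 and Irx1, an Iroquois homeobox gene, the boundaries had strengths of 0.819 and 1.56.

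The desert between Tshz3 and Zfp536, both zinc finger genes, held 1 boundary of 1.43, with a CTCF match. That between A1bg and the oncogene Myc held 1 of 1.38, 847.9 kb from Myc. Only 2 desert boundaries over 1000 kb from any coding gene had a strength above 1. One of them, picked after its value was seen, lay at chr2:8660001-8665000 (1.30), 1153 kb from Celf2 and 1195 kb from Gata3, a regulator of T cells and of inner ear and kidney development; it had a CTCF match and 3 weak neighbours on the Celf2 side, of 0.321, 0.268 and 0.234. The other (1.23) lay between the teneurin gene Tenm2 and Mat2b.

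Of 79 signalling genes listed, 14 flanked a desert with a boundary, 1.43% of the flanks (0.855 to 2.39). The list made up 0.328% of the other autosomal coding genes, a difference of 1.10 points (0.519 to 2.06). Among the flanks of deserts without a boundary it made up 2.30% (1.62 to 3.24), and the difference to those was -0.865 points (-1.97 to 0.306). The 19 boundaries they flanked were strong in 42.1% of cases (23.1 to 63.7), against 24.1% of the rest. The interval of that difference, -1.13 to 39.8 points, includes 0. The strongest lay beside Erbb4, a receptor for neuregulins, at 1.75, in a desert that ends at Ikzf2. Next came Tgfbr2, a TGF-beta receptor (1.17), Fgf20, a fibroblast growth factor (1.14), Jag1, a Notch ligand (1.05), and Edn1, the endothelin precursor (0.947).

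Neuronal adhesion and guidance genes stood out among the flanks. Of 98 listed, 64 (65.3%, 55.5 to 74.0) flanked a desert with a boundary. They were 6.54% (5.16 to 8.27) of those flanks and 1.48% (0.961 to 2.28) of the flanks of deserts without one, a difference of 5.06 points (3.46 to 6.87). Length went along with it: in gaps of 200 to 500 kb the shares were 2.33% and 1.73%, in gaps of 500 to 1000 kb 4.66% and 3.97%, and above 1000 kb 11.9% and 3.33%, the last from 1 of 30 flanks. The share was higher with a boundary in every length class, but by little in gaps up to 1000 kb. There the counts were 5 of 215 against 21 of 1211, and 18 of 386 against 11 of 277. No interval was computed by class, so a difference apart from length was not resolved. The 250 boundaries beside these genes were strong in 20.4% of cases (15.9 to 25.8), against 25.7% of the rest, a difference of -5.31 points (-10.9 to 0.867).

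After Cdh6-Cdh9, the strongest lay between Manea and Epha7, an ephrin receptor (1.69), between Cntnap5b, a contactin-associated protein, and Cdh20, a cadherin (1.63), and between Dnah5 and Ctnnd2, the neuronal delta-catenin (1.62). The next was beside the ephrin receptor Epha5 (1.55). The 5 kb at Dnah5-Ctnnd2 were 99.5% soft-masked, and those at Cntnap5b-Cdh20 68.2%.

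Of all 20780 autosomal coding genes, 4.71% flanked a desert with a boundary. Of 226 housekeeping genes 9 did (3.98% of the list, 2.11 to 7.39), near that share, and the strongest boundary among them was of 0.663 between Mdga2 and the ribosomal protein gene Rps29. Odorant and vomeronasal receptor genes were sparse beside deserts of both kinds. They were 0.102% of the flanks of deserts with a boundary and 1.70% (23 of 1350) of those without. Over all autosomal coding genes their share was 7.06%. Of 1468 on the list 1 was a flank, and it was Olfr1507, the receptor of the sorted neurons. Its desert of 1740 kb, which ends at Dad1, holds gene segments of the T cell receptor, and its single desert boundary (strength 0.518) stood 198.0 kb from Dad1. Of 24 markers of olfactory epithelium cells 1 was a flank, Gap43, a protein of growing axons (0.228). Immune receptor segments, which are not counted as coding genes, lay within 100 kb of 9 desert boundaries.

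Of gaps of 200 to 500 kb, 14.2% held a desert boundary, of those of 500 to 1000 kb 58.1%, of those up to 2000 kb 91.0%, and of longer ones 98.6%. A longer gap has more sequence over 100 kb from its flanks, so these shares rise with length by the rule itself. Per Mb of desert sequence the same 4 classes held 1.34 (95% Poisson interval 1.10 to 1.61), 1.45 (1.28 to 1.64), 1.63 (1.46 to 1.82) and 1.62 (1.44 to 1.81) boundaries, intervals that overlap. The share of strong boundaries was lower in longer deserts, at 44.5% (35.6 to 53.9), 30.2% (25.0 to 36.1), 20.6% (16.6 to 25.2) and 16.1% (12.5 to 20.6). There were 323 deserts with 1 boundary, 156 with 2 or 3, and 65 with 4 or more, which together held 336.

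The most boundaries, 11, lay in the longest desert, 4668 kb between Tenm3, a teneurin that guides synaptic partners, and Aga, a lysosomal enzyme. Only 1 of them was strong (0.598), and 9 had a heavily masked bin 10 or 15 kb away. The desert between the protocadherin genes Pcdh20 and Pcdh9 held 9, of which the strongest (1.14) stood 531 kb from Pcdh20 and the rest were weak. Between Slc39a10, a zinc transporter, and Tmeff2 there were 8, all weak, with strengths from 0.202 to 0.403.

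Another 9 deserts held 7 each. In that between Cdh6 and Cdh9, the boundary of 1.94 was followed by 6 weak ones between 0.231 and 0.374, and all 7 had a heavily masked bin 10 or 15 kb away. Between Zeb2, a transcription factor of neural crest, and Acvr2a, an activin receptor, 1 of 7 was strong (0.679), 2325 kb from Zeb2, and 3 had such a bin. The highest strength was 1.26 between Olfm4 and Pcdh17, 1.26 between Dsel and Cntnap5a, 0.971 between Snx16 and Ralyl, 0.771 between Nudt12 and the ephrin gene Efna5, and 0.490 between D3Ertd751e and Pcdh10. Each of the long deserts Tenm3-Aga, Pcdh20-Pcdh9, Slc39a10-Tmeff2, Cdh6-Cdh9 and Zeb2-Acvr2a thus had at most 1 strong boundary in a row of weak ones. Over all deserts longer than 2000 kb, 16.1% of boundaries were strong, so few strong ones are the rule there. Strong boundaries in the other deserts with 7 were not counted.

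**Figure D5:**
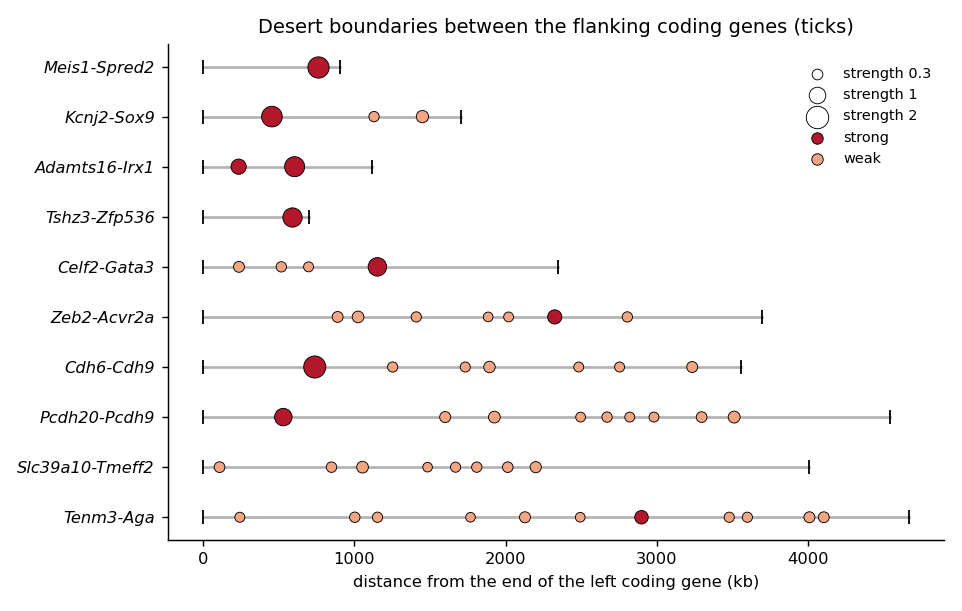
Positions of desert boundaries (kb from the end of the left coding gene) in 10 deserts, each drawn as a line between its flanking coding genes (ticks); circle area grows with strength, dark circles are strong and light ones weak. Tenm3-Aga holds 11 boundaries with a highest strength of 0.598, while Kcnj2-Sox9 and Cdh6-Cdh9 have boundaries of 1.66 and 1.94 nearer to their left gene.

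The nearest coding gene turned its start to the boundary slightly more often than its end. For 559 of the 1020 (54.8%, 51.7 to 57.8) the nearest coding gene had its start, rather than its end, toward the desert boundary. The share was 57.03% (50.8 to 63.0) in the strong class and 54.1% (50.6 to 57.6) in the weak. These intervals lie above an even split, but the share over desert bins was not computed. Whether the boundaries differ from desert sequence in this was therefore not tested.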

How the data were processed

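In situ Hi-C boundaries of 1 group, 2 biological replicates combined by the authors, were used. The deposited strength is a score given by the authors, and its scale is not stated. Boundaries were placed on GRCm38, per the submitters' processing notes. For caller, window and aligner: not given in the sources used here. Members and gene lists were chosen with earlier results of these data known. Boundaries were joined to GENCODE vM21 gene models and to the RefSeq GRCm38.p6 sequence, cut into 5 kb bins, with pandas 2.3.3, numpy 2.4.6 and scipy 1.17.1 under Python 3.11.15. A bin needed 2500 assembled bases. Desert bins met the rule of the members and served as reference. The CTCF core motif, in IUPAC codes, was searched on both strands. Shares have Wilson, differences of shares Newcombe, medians binomial order-statistic and densities exact Poisson intervals at 95%. With 1 list no test over samples was possible, nor could replicates be left out in turn. The estimates were checked on simulated boundaries. Genes named are flanks of the 10 strongest boundaries and of the 10 deserts with most boundaries, up to 5 per list, noncoding genes at the 10 strongest boundaries that have one, and the boundaries nearest to the limit.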

Additional observations from a re-analysis of the deposited data

How the results depend on the processing

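The 8 main results were recomputed under 8 alternatives and 4 more chosen after the data were seen, which gave 83 values. Of these 55 stayed within the interval of the main value and 28 did not. One of the 55 has the opposite sign: the difference in noncoding starts, -0.968 points (-3.20 to 1.501), was 0.867 with strong boundaries alone. The number of desert boundaries, 1020, was 1463 with a limit of 50 kb, 732 with one of 200 kb and 778 without soft-masked intervals. A desert limit of 50 kb gave a difference in the strong share of -29.0 points, a density ratio of 0.489, a GC difference to desert bins of -0.0310 points and a CTCF difference of 6.63 points (main values -37.0, 0.446, -0.279 and 4.29). A limit of 200 kb gave -41.6 points, 0.484 and a CTCF difference of 1.69. With lncRNA genes also ending a desert there were 641 desert boundaries, a ratio of 0.491, a median spacing of 340 kb (main 380) and a difference of 4.01 points for developmental transcription factors among flanks (main 5.38). With strong boundaries alone there were 249, the ratio was 0.177, spacing 930 kb, the CTCF difference 14.96 points, and the GC difference reversed to 1.16; the strong share then has no value. The CTCF difference was 1.39 points in the interval alone and 6.80 points with 25 kb on each side. Without soft-masked intervals, spacing was 432.5 kb. Without boundaries and bins beside heavily masked sequence there were 410 desert boundaries, with -30.4 points, a ratio of 0.272, spacing of 530 kb, a CTCF difference of 10.4 points and a GC difference that reversed to 0.707. Alternatives that select fewer boundaries change counts by their construction; other causes were not tested. No paired analysis was possible because the boundaries come from 1 combined list.

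The list gives no depth, so counts, spacing and strength are those of 1 map. A desert with no boundary and one whose boundaries lie below the resolution of the map cannot be told apart. Intervals cover counting error only. Repeats, GC and distance from genes went together, and their parts in the boundary calls were not tested.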

Other observations

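Long deserts without a desert boundary were rare. Of the gaps over 1000 kb between coding genes, 17 held none. The longest was 2361 kb between Ywhaq and Gm10330, and the next 1991 kb between Pcdh9, a protocadherin, and 4921530L21Rik. Developmental regulators stood beside several: the 1786 kb between Myc and Gsdmc, the 1603 kb between Arrdc4 and the nuclear receptor gene Nr2f2, the 1262 kb between Rorb, another nuclear receptor, and Anxa1, and the 1020 kb beside Fgf9.

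Most of these gaps had a boundary within 100 kb of a gene. Such an edge boundary had a strength of 2.93 between Gja1, the connexin 43 gene, and Hsf2, of 2.48 between Megf9 and Gm11232, of 1.83 between Csmd1 and Mcph1, and of 0.558 between Myc and Gsdmc. No boundary of any kind lay in 3 of the 17: 5730507C01Rik-Gm21863 (1419 kb), Gm12887-9530002B09Rik (1067 kb) and 1700017N19Rik-Mgat4c (1063 kb). The desert on the other side of Myc, toward A1bg, held a desert boundary of 1.38. These gaps were chosen after their values were seen.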
